A study of Mus musculus with 3 samples.

Results

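The genes of the major histocompatibility complex (MHC, called H2 in the mouse) and of antigen presentation were examined on 3 expression arrays of mouse thymocytes. Members were the probe sets whose annotated symbols include a name beginning with H2- or one of B2m, Tap1, Tap2, Tapbp, Cd74, Ciita, Nlrc5, Cd1d1, Cd1d2, Mr1, Erap1 and Calr. The rule found 69 of the 23410 annotated probe sets, and they carry 54 member symbols. The arrays were 1 of TCF-1-/- thymocytes (called knockout here) at 8 weeks of age, 1 of β-catenin transgenic thymocytes at 16 weeks and 1 of WT thymocytes at 12 weeks. TCF-1 is a DNA-binding factor of T cells and β-catenin its co-activator, and the study looked for genes low without the first and high with more of the second. The labels give no strain, sex, H2 haplotype, number of mice, promoter of the transgene, or sort. Each genotype has 1 array, so values have no error estimate and nothing can be tested. Values are the deposited levels, taken as log2, and differences are in log2 units. A probe set is said to be called where the difference reaches 1, which is 2-fold.

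Class I molecules pair a heavy chain with β2-microglobulin and show peptides made in the cytosol to CD8 T cells. Class II molecules are αβ dimers that show peptides from endosomes to CD4 T cells, and are known mainly from B cells, dendritic cells, macrophages and thymic epithelium. In the thymus the presented peptides, lipids and metabolites select the developing T cells, and double-positive thymocytes themselves select natural killer T cells through CD1d. The H2 genes are among the most polymorphic genes between mouse strains.

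The class I-like genes Cd1d1 and Mr1 were lower on the knockout array than in wild type, by 3.50-fold and 3.40-fold. On the knockout array Cd1d1 was at 6.93, about the median of annotated probe sets (6.91), and Mr1 was at 9.88. Most class II genes were higher on the knockout array, with 3 of 9 probe sets called, against 1.38% called higher over all annotated probe sets. The T region class I probe set of H2-T3 and H2-T18 was higher by 7.16-fold, against a wild type level under the median of annotated probe sets, so the size of that fold is uncertain. The classical class I probe sets, B2m and the peptide-loading genes were within 1.5-fold of wild type. On the transgenic array 2 probe sets of the Q region were higher, those of H2-Q2 and of H2-Q1 with H2-Bl, and no other member was called.

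Over all 69 members, 5 (7.25%) were called higher and 3 (4.35%) lower for knockout against wild type. Over all 23410 annotated probe sets, 1.38% were higher and 2.8% were lower. Between the transgenic and wild type arrays, 2 members were higher and 0 lower, against 0.171% higher and 0.124% lower over all annotated probe sets. Between the transgenic and knockout arrays, 4 members were higher and 2 lower, with 2.46% and 1.62% over all annotated probe sets. The median difference over members was 0 against wild type for both mutants, as it was over all annotated probe sets. At 1.5-fold, 10 members were higher and 4 lower for knockout against wild type, with 4.21% and 6.97% over all annotated probe sets. For transgenic against wild type, 3 were higher and 5 lower, with 0.5% and 0.765% over all. All 5 of these lower probe sets are of Nlrc5. With 1-symbol probe sets alone, 2 members were called higher and 3 lower for knockout against wild type, since H2-T3 with H2-T18, H2-T9 with H2-T22 and H2-T10, and H2-DMb2 with H2-DMb1 carry several symbols. The scaling also bears on calls near 2-fold. Centring the arrays on their medians over all 35556 probe sets adds 0.13 to every knockout minus wild type difference. The members called then become 8 higher and 2 lower, and the annotated probe sets 434 higher and 511 lower, in place of 324 and 655. The 3 members gained are H2-Ab1, Cd74 and H2-M10.4, and H2-Q2 is lost. Centring on the medians over annotated probe sets goes the opposite way and changes each difference by -0.04. The members called are then 4 higher and 3 lower, H2-DMb2 with H2-DMb1 being lost at 0.97, and the annotated probe sets are 296 higher and 709 lower. For the transgenic array centring over all probe sets adds 0.08, and the annotated probe sets called become 47 higher and 22 lower, in place of 40 and 29.

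The arrays carried thymocyte transcripts, as labelled: all 7 measured defining thymocyte markers were above the median level of annotated probe sets (6.91) on every array. Cd4, the co-receptor that binds class II, was at 9.13 in knockout thymocytes, 13.29 in transgenic thymocytes and 12.87 in wild type thymocytes. Cd8b1, a chain of the co-receptor that binds class I, was at 11.26 (knockout), 13.39 (transgenic) and 13.36 (wild type). Xist, transcribed from the inactive X chromosome, was at 12.17 in knockout thymocytes, 4.86 in transgenic thymocytes and 12.49 in wild type thymocytes. Eif2s3y, a Y-linked gene, had the opposite pattern, at 3.84 (knockout), 8.43 (transgenic) and 3.73 (wild type). The transgenic array therefore differs from the others in sex-linked transcripts as well as in genotype and age, and these cannot be told apart. The knockout array, at 8 weeks, differs from the wild type array, at 12 weeks, in age as well as in genotype. Age and genotype cannot be told apart in that comparison either.

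Signal can be shared between genes of this family. Of the 69 member probe sets, 10 (14.5%) are annotated to several genes, against 6.92% of all annotated probe sets. Both classical class I probe sets are annotated to H2-K1, H2-D1 and LOC547349 together, so H2-K1 and H2-D1 cannot be told apart here. Several symbols are also given for H2-Q1 with H2-Bl, H2-Q6 with H2-Q8, H2-T9 with H2-T22 and H2-T10, H2-T3 with H2-T18, H2-T-ps with H2-T23, and H2-DMb2 with H2-DMb1. Of the 8 accessions behind each of the 2 probe sets annotated to Rps3a1 and Tapbp, 1 is a RefSeq transcript of Rps3a1, a ribosomal protein gene, and 0 are RefSeq transcripts of Tapbp. These 2 probe sets are given by their annotation and not read as Tapbp. A probe set with a single symbol can still read close relatives, which the annotation does not show.

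The deposited values also repeat exactly between arrays. Of the members, 9 (13.0%) are identical on all 3 arrays in every printed digit, against 33.7% of annotated probe sets. On the transgenic and wild type arrays 19 members are identical, and on the knockout and wild type arrays 11 are. A difference of exactly 0 is such a repeated value. Of the 69 members, 17 stayed under the median level of 6.91 on all arrays, among them 11 of the 12 M region class I genes.

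Promoter sequences are shown for the members that the results turn on. The windows are from RefSeq, build GRCm38.p6, and 37 of the 54 member genes had 1 or more, 40 windows in all. Each runs from 250 bases before a start that the table uses to 50 after it. That start is the outer end of the gene's RefSeq span for 30 windows and lies inside the span for 10. For the windows printed here it lies 272 bases inside the span for H2-K1 and 172 bases inside it for H2-Eb2. Letters were searched on both strands: ATTGG for the CCAAT or Y box bound by NF-Y, CTTTGAT and CTTTGAA for TCF/LEF factors, GAAA followed after any 2 bases by GAAA for the interferon-stimulated response element, and the kappa B motif of class I promoters, whose letters are the longest run of capitals in the H2-K1 line. None of these motifs contains another. The 200 bases before that start are printed for genes whose probe sets differ between arrays and, for comparison, for the classical class I genes, 5′ to 3′ on the gene's own strand, with the motif matches in capitals. The first set is class II.
H2-Aa, chr17:34287824-34288023, minus strand: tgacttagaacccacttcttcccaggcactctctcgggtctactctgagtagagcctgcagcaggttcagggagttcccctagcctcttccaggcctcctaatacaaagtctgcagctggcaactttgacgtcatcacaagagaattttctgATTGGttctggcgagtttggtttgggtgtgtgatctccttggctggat
H2-Eb1, chr17:34305667-34305866, plus strand: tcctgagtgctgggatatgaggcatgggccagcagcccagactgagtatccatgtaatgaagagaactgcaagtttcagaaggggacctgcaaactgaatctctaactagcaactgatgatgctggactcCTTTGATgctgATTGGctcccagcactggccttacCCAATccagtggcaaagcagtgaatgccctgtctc
H2-Eb2, chr17:34325475-34325674, plus strand: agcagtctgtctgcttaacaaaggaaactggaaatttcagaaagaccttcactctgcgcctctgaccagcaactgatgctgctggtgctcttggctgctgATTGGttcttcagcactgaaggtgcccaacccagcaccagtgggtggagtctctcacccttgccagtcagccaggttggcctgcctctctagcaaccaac

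The second set is class I. H2-K1 and H2-D1 are the classical genes, H2-Q2 is the Q region gene that differed in opposite directions on the mutant arrays, and H2-T3 is the T region gene of the probe set with the largest difference.
H2-K1, chr17:34000348-34000547, minus strand: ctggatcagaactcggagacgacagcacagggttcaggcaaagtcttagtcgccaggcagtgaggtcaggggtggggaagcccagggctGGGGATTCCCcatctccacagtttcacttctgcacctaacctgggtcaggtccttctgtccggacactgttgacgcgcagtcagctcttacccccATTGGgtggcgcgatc
H2-D1, chr17:35262894-35263093, plus strand: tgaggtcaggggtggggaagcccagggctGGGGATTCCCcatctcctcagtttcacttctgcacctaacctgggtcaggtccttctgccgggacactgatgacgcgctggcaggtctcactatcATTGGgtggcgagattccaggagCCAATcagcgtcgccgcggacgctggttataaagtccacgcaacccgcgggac
H2-Q2, chr17:35342107-35342306, plus strand: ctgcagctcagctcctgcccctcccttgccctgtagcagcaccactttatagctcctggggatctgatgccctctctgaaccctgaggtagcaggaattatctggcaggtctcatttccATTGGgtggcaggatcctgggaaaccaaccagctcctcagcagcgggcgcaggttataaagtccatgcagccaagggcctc
H2-T3, chr17:36190152-36190351, minus strand: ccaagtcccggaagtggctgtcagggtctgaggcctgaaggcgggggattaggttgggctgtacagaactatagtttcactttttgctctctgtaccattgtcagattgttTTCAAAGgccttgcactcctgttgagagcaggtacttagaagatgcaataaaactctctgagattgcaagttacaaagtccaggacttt

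ATTGG was in 8 of 9 class II windows and in 21 of 24 windows of classical, Q, T and M class I genes, against 37.4% of all 32851 windows. It lies 48 bases before the start in H2-Aa and 100 bases before it in H2-Eb2. The kappa B letters were in 4 of 24 class I windows and 0 of 9 class II windows, against 0.107% of all windows. They are in both windows of H2-K1 and in those of H2-D1 and H2-Q6, and not in the windows of H2-Q2 or H2-T3. The TCF/LEF letters were in 2 of 9 class II windows, H2-Eb1 and H2-Eb2, and in 5 of 24 class I windows, against 8.65% of all windows. The class I windows were those of H2-T-ps, H2-T3 and H2-M1 and both overlapping windows of H2-M9. In H2-T3 the TCF/LEF letters lie 89 bases before the start on the opposite strand, and in H2-Eb1 70 bases before the start. The match in H2-Eb2 lies outside the printed stretch. The interferon element was in 2 of 24 class I windows, those of H2-T22 and H2-T23, in the windows of B2m and Erap1, and in 0 of 9 class II windows, against 3.44% of all windows. A match describes letters and does not show a site.

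The classical class I heavy chains, which present peptides to CD8 T cells, differed little. The probe set listed first for H2-K1 was at 10.52 in knockout thymocytes, 9.70 in transgenic thymocytes and 10.21 in wild type thymocytes. The probe set listed first for H2-D1 was at 10.71 (knockout), 10.38 (transgenic) and 10.58 (wild type). Both were highest on the knockout array and lowest on the transgenic array. The differences from wild type were 0.31 and 0.13 on the knockout array, and -0.51 and -0.20 on the transgenic array, all under 1.5-fold. B2m, the shared light chain, kept the same order, at 13.42 in knockout thymocytes, 13.01 in transgenic thymocytes and 13.15 in wild type thymocytes. H2-K1 lies at 33996012 to 34000619 and H2-D1 at 35263094 to 35267497 of chromosome 17 in GRCm38.p6, at either end of the class II and class III stretch.

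**Figure D1:**
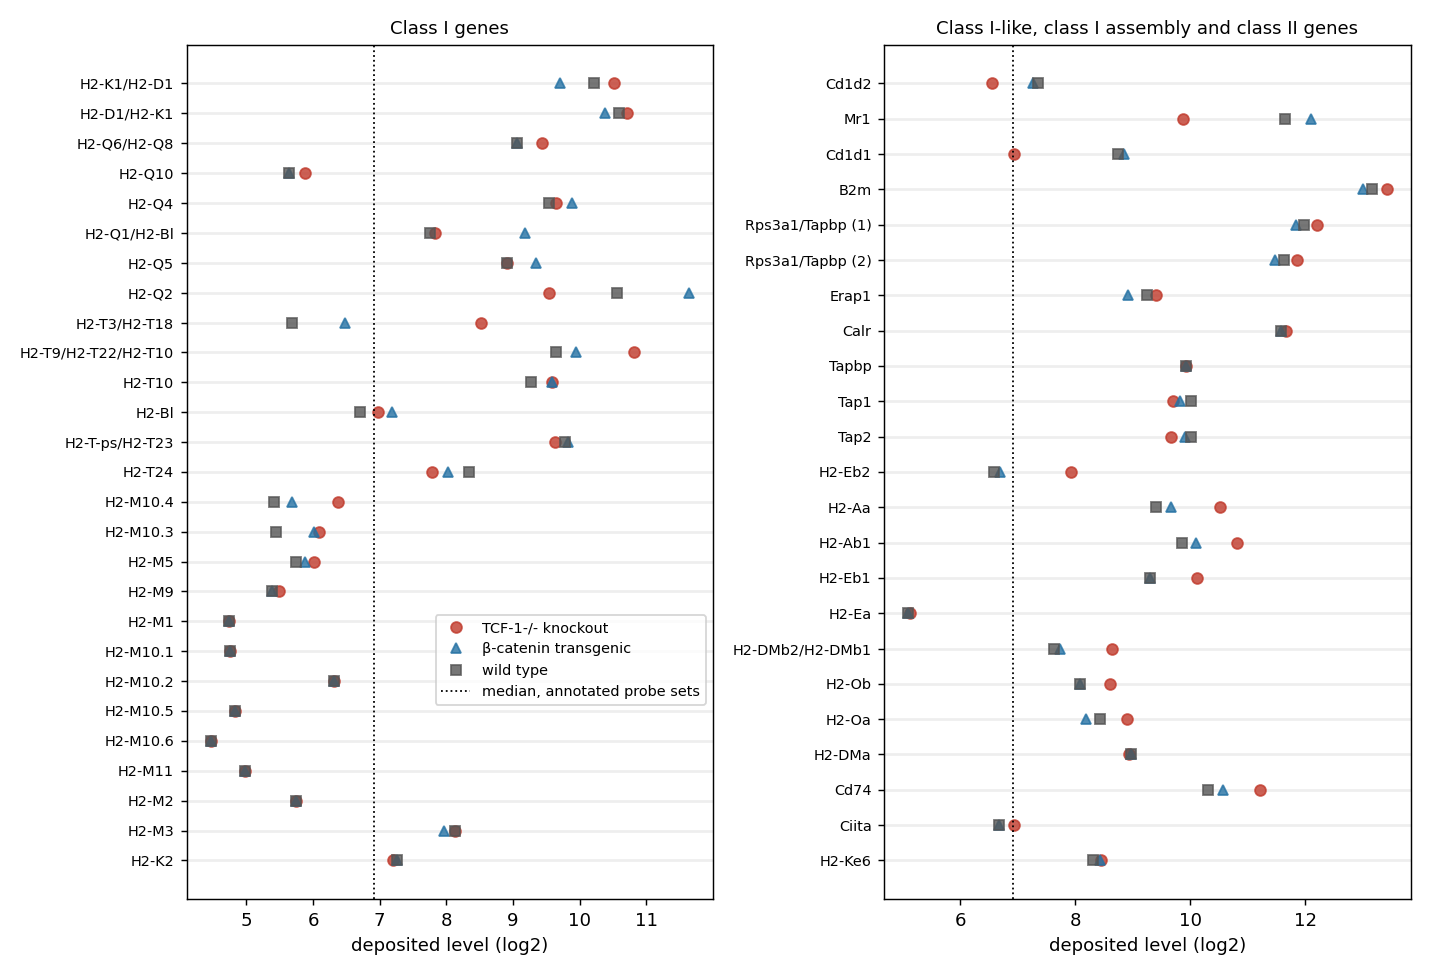
Deposited level (log2, horizontal axis) of each member probe set except those of Nlrc5, with class I genes on the left and class I-like, class I assembly and class II genes on the right. Points are single arrays, and the dotted line is the median of annotated probe sets (6.91). Cd1d1 and Mr1 lie far to the left on the knockout array, and most class II genes lie to the right on it.

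The genes that load class I molecules were also within 1.5-fold. Of the 8 probe sets of class I assembly genes, 0 were called in any comparison, and the medians were 0.13 for knockout minus wild type and -0.15 for transgenic minus wild type. Tap1 and Tap2, the subunits of the peptide transporter, were lowest on the knockout array. Tap1 was at 9.70 there, 9.82 on the transgenic array and 10.01 on the wild type array. Tap2 was at 9.66 (knockout), 9.90 (transgenic) and 10.01 (wild type). Their neighbours in the pathway did not follow: the probe set annotated to Tapbp alone, the loading factor tapasin, was at 9.93 (knockout), 9.92 (transgenic) and 9.93 (wild type). Erap1, which trims peptides, was at 9.40 in knockout thymocytes, 8.92 in transgenic thymocytes and 9.25 in wild type thymocytes, the same order as B2m. Calr, the chaperone calreticulin, was at 11.67 on the knockout array and 11.57 on the others. The 2 probe sets annotated to Rps3a1 and Tapbp differed from wild type by 0.23 and 0.21 on the knockout array and by -0.15 and -0.16 on the transgenic array. H2-Ke6, an enzyme gene that lies in the complex and has no part in presentation, differed by 0.14 and 0.13.

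Nlrc5, the transactivator of class I genes, is covered by 19 probe sets, all annotated to that gene alone. None was called in any comparison. Of the 19, 14 were below wild type and 2 above it on the knockout array, and 16 were below and 0 above it on the transgenic array. The remaining 3 were identical to wild type in each case. The medians were alike, -0.14 on the knockout array and -0.14 on the transgenic array, and with arrays centred over all probe sets they were -0.01 and -0.07. The probe sets differed among themselves. On the transgenic array 5 of 19 were lower by at least 1.5-fold, at positions 1, 3, 4, 11 and 12 in the order of the array identifiers, and 0 were on the knockout array. The fourth was at 7.62 in knockout thymocytes, 7.19 in transgenic thymocytes and 8.14 in wild type thymocytes. The second was close to level over the arrays, at 9.75 (knockout), 9.69 (transgenic) and 9.79 (wild type). Of the 19, 4 stayed under the median level of 6.91 on all arrays, and 2 were identical on all 3 arrays.

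**Figure D2:**
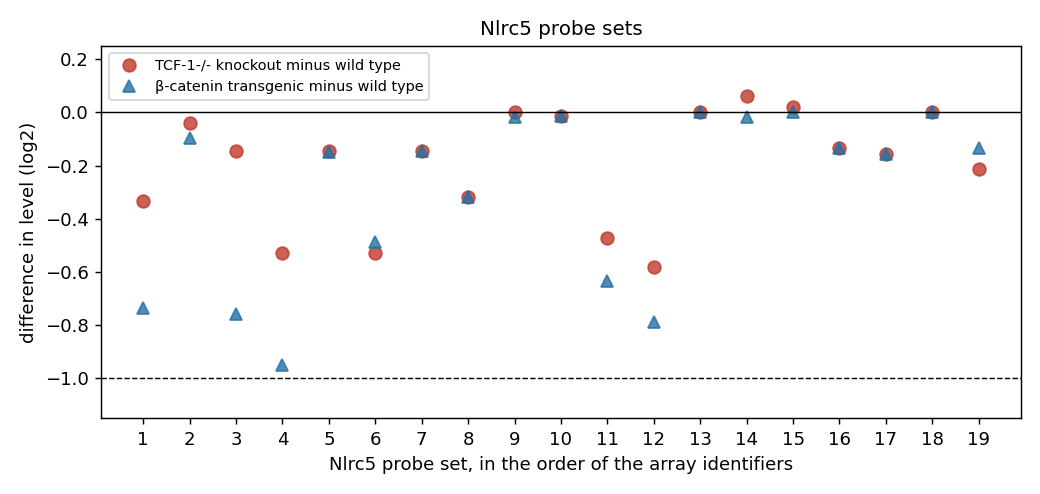
Difference from wild type (log2, vertical axis) of the 19 Nlrc5 probe sets, in the order of their array identifiers (horizontal axis), with 1 point per mutant array. The dashed line marks a 2-fold lower level, which no point reaches, and the lowest point is the fourth probe set on the transgenic array at -0.95.

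The class I-like genes outside the complex include the members lowest on the knockout array against wild type. Cd1d1, which presents lipids to natural killer T cells, was at 6.93 in knockout thymocytes, 8.85 in transgenic thymocytes and 8.74 in wild type thymocytes. Mr1, which presents vitamin B metabolites to mucosal-associated invariant T cells, was at 9.88 in knockout thymocytes, 12.10 in transgenic thymocytes and 11.64 in wild type thymocytes. In both genes the knockout array was low and the other arrays were closer together. The differences from wild type were -1.81 and -1.76 on the knockout array, and 0.11 and 0.46 on the transgenic array. Cd1d2, the neighbouring relative of Cd1d1 that RefSeq lists as a transcribed pseudogene, was at 6.55 in knockout thymocytes, 7.26 in transgenic thymocytes and 7.35 in wild type thymocytes. Its difference of -0.80 did not reach 2-fold, and signal between Cd1d1 and Cd1d2 may be shared. Cd1d1 lies at 86995834 to 87012358 and Cd1d2 at 86986586 to 86989533 of chromosome 3, and Mr1 at 155127874 to 155146814 of chromosome 1. The lower level of these genes went with a lower level of part of the thymocyte list on the same array. Of the 14 measured genes of that list, 5 were lower and 1 higher past 2-fold, with a median of -0.52. Over all 19938 genes, 2.62% were lower and 1.33% higher. The lower list genes were the co-receptor genes Cd4 (-3.74), Cd8b1 (-2.10) and Cd8a (-1.45) and the recombinase genes Rag1 (-1.95) and Rag2 (-1.44). The higher one was Ptcra, the pre-T cell receptor α chain (1.79). The rest of the list was under 2-fold. Thy1 (-0.61), Cd5 (-0.61), Dntt (-0.43), Cd3e (-0.365) and Cd2 (-0.03) were below wild type. Cd3d (0.60) and Cd3g (0.17) were above it, and Zap70 was identical on the arrays. The part of the thymocyte list in the Cd1d1 and Mr1 levels was not tested. The thymocyte sum, on a linear scale in the array's units, was 48916 in knockout thymocytes, 82454 in transgenic thymocytes and 80770 in wild type thymocytes. The lower genes Cd4, Cd8b1, Cd8a and Rag1 weigh on the knockout sum. The order of this sum is therefore not read as an order of thymocyte content. In a bulk sample fewer cells of a type and less RNA per cell cannot be told apart.

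Of the 25 probe sets of non-classical class I genes, 2 were higher and 1 lower on the knockout array, and 2 were higher and 0 lower on the transgenic array. Over all annotated probe sets, 1.38% were higher and 2.8% lower on the knockout array. On the transgenic array 0.171% were higher and 0.124% lower. The regions of the complex differed in which of their probe sets were called. In the Q region, the transgenic array was the highest for H2-Q1 with H2-Bl, H2-Q2, H2-Q4 and H2-Q5. H2-Q2 was at 9.54 in knockout thymocytes, 11.64 in transgenic thymocytes and 10.56 in wild type thymocytes. It is the member called in opposite directions, at -1.02 against wild type for the knockout and 1.08 for the transgenic array. The lower call lies at the threshold and ends when arrays are centred over all probe sets (-0.88) or when an intensity trend is removed (-0.99). H2-Q2 lies at 35342307 to 35346764 of chromosome 17.

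H2-Q1 with H2-Bl was at 7.82 in knockout thymocytes, 9.18 in transgenic thymocytes and 7.75 in wild type thymocytes. The transgenic array alone was high, by 1.43 over wild type, or 2.70-fold. The probe set annotated to H2-Bl alone shares 1 accession with it and was at 6.98 (knockout), 7.18 (transgenic) and 6.71 (wild type), a difference of 0.48 on the transgenic array. H2-Q4 differed from wild type by 0.11 on the knockout array and 0.34 on the transgenic array, and H2-Q5, a transcribed pseudogene in RefSeq, by 0.01 and 0.44. H2-Q6 with H2-Q8, genes of the Qa-2 family, was at 9.43 on the knockout array and 9.06 on both others. H2-Q10, known as a protein secreted by the liver, stayed between 5.64 and 5.88.

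In the T region the knockout array was the highest for the probe sets that were called. H2-T3 with H2-T18, the genes of the thymus leukaemia antigen, was at a level of 8.52 in knockout thymocytes, 6.48 in transgenic thymocytes and 5.68 in wild type thymocytes. This antigen is known to be made by the thymocytes of some mouse strains and not of others. The difference from wild type was 2.84 on the knockout array and 0.80 on the transgenic array, and the transgenic and wild type values lie under the median level of 6.91. H2-T9 with H2-T22 and H2-T10, ligands of some γδ T cell receptors, was at 10.81 (knockout), 9.95 (transgenic) and 9.64 (wild type), a difference of 1.17 on the knockout array and 0.31 on the transgenic array. The probe set annotated to H2-T10 alone shares 3 accessions with it and did not follow, at 9.59 on the knockout and transgenic arrays and 9.27 on the wild type array. H2-T-ps with H2-T23, whose product Qa-1 is a ligand of CD94 and NKG2 receptors, was at 9.62 (knockout), 9.83 (transgenic) and 9.78 (wild type). H2-T24 was the lowest of the region against wild type, at 7.78 in knockout thymocytes, 8.02 in transgenic thymocytes and 8.34 in wild type thymocytes.

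Of the 12 M region genes, 0 were called, and 7 were identical on all arrays. H2-M3, which presents N-formylated peptides, was the 1 of these genes above the median level, at 8.13 in knockout thymocytes, 7.97 in transgenic thymocytes and 8.13 in wild type thymocytes. The H2-M10 genes are known from the vomeronasal organ. Of these, H2-M10.4 was at 6.37 (knockout), 5.68 (transgenic) and 5.41 (wild type) and H2-M10.3 at 6.09 (knockout), 6.02 (transgenic) and 5.44 (wild type), both dim. The differences on the knockout array were 0.96 and 0.65. H2-K2, a transcribed pseudogene beside H2-K1, stayed between 7.20 and 7.27.

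**Figure D3:**
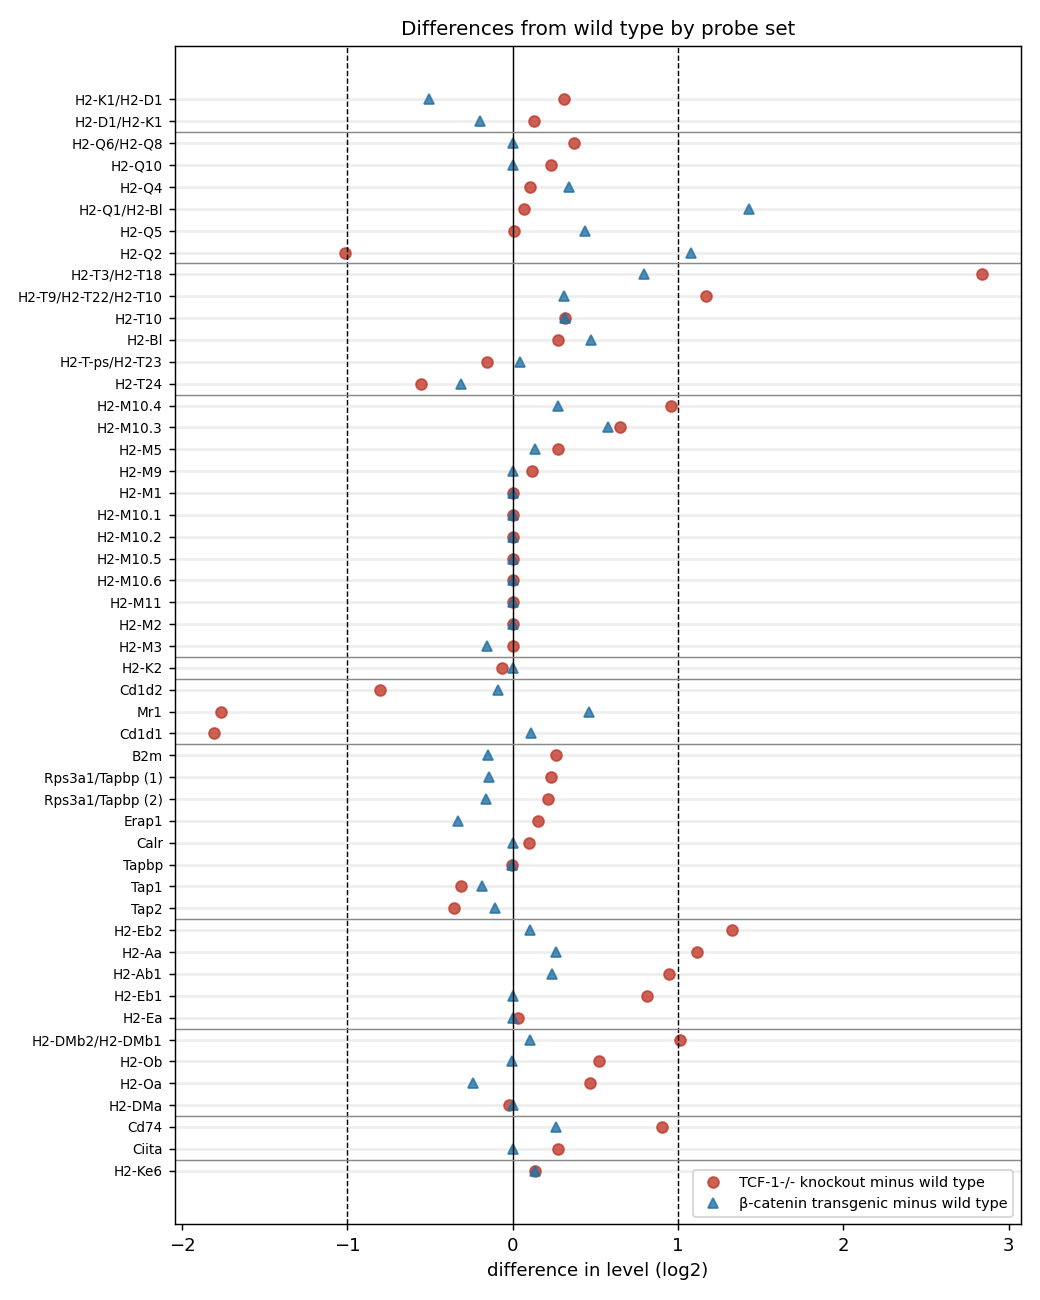
Difference from wild type (log2, horizontal axis) of each member probe set except those of Nlrc5, with 1 point for the knockout array and 1 for the transgenic array. Dashed lines mark 2-fold, and grey lines separate the classes. Most class II chains and H2-T3 with H2-T18 lie to the right on the knockout array, Cd1d1 and Mr1 to the left, and H2-Q2 and H2-Q1 with H2-Bl to the right on the transgenic array.

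Most class II genes were higher on the knockout array. Of the 9 class II probe sets, 8 were above wild type there, 5 by at least 1.5-fold and 3 by at least 2-fold, with a median of 0.81, and 0 were lower by 1.5-fold. On the transgenic array 0 were beyond 1.5-fold and the median was 0. H2-Aa, the α chain of I-A, was at 10.52 in knockout thymocytes, 9.67 in transgenic thymocytes and 9.40 in wild type thymocytes. H2-Ab1, its β chain, was at 10.81 (knockout), 10.10 (transgenic) and 9.86 (wild type). Both chains of I-A thus had the same order, with differences on the knockout array of 1.11 and 0.95. H2-Eb1, the β chain of I-E, was at 10.11 on the knockout array and 9.30 on both others, a difference of 0.81. H2-Eb2, a relative of H2-Eb1, was at 7.92 (knockout), 6.70 (transgenic) and 6.59 (wild type), a difference of 1.33 from a wild type level below the median of 6.91. H2-Ea, the α chain of I-E, is listed by RefSeq as a transcribed pseudogene in the strain of the reference genome, and was at 5.13 on the knockout array and 5.09 on the others.

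The genes that work on class II molecules inside the cell followed in part. Cd74, the invariant chain that holds class II dimers until peptides are loaded, was at 11.21 in knockout thymocytes, 10.58 in transgenic thymocytes and 10.31 in wild type thymocytes, a knockout minus wild type difference of 0.90. H2-DMb2 with H2-DMb1, the β chains of the DM peptide exchanger, was at 8.64 (knockout), 7.73 (transgenic) and 7.62 (wild type), a difference of 1.01. H2-DMa, the α chain of the same dimer, did not share it, at 8.94 on the knockout array and 8.97 on the others. H2-Oa and H2-Ob, the chains of DO, an inhibitor of DM, were above wild type by 0.47 and 0.52 on the knockout array, under 1.5-fold. On the transgenic array they were at -0.24 and -0.0022 against wild type. Ciita, the master regulator of class II genes, was at 6.94 on the knockout array and 6.66 on both others.

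B cell markers, among the markers of cells that carry class II, were higher on the same array. Of the 15 measured genes of the B cell list, 6 were higher and 0 lower past 2-fold on the knockout array, with a median of 0.95, against 1.33% higher and 2.62% lower over all genes. The summed level of the list, on a linear scale in the array's units, was 5191 in knockout thymocytes, 2863 in transgenic thymocytes and 2585 in wild type thymocytes. Cd79a, which signals for the B cell receptor, was at 9.52 (knockout), 7.96 (transgenic) and 6.99 (wild type). Ms4a1, which encodes CD20, was at 7.77 (knockout), 6.50 (transgenic) and 6.13 (wild type). The others past 2-fold were Blk, a kinase (2.99), Fcer2a, which encodes CD23 (1.52), Bank1, an adaptor of B cell receptor signals (1.52), and Spib, a transcription factor (1.10). Blk was at 9.93 (knockout), 6.74 (transgenic) and 6.93 (wild type) and weighs on the knockout sum. Of the 4 measured defining B cell markers, 0 lay under the median level of 6.91 on the knockout array, and 2 did on each of the others. Of these 4, Cd79b (0.45) and Pax5 (0.75) were not called on the knockout array. On the transgenic array 0 of the 15 genes were called, Cd79a coming nearest at 0.97, against 0.15% higher and 0.0953% lower over all genes.

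Of the 14 measured myeloid genes, 3 were higher and 0 lower on the knockout array, with a median of 0.19. Over all genes, 1.33% were higher and 2.62% lower. The summed level was 5428 there, 2223 on the transgenic array and 1918 on the wild type array. Ly86, a partner of the Toll-like receptor homologue RP105, was at 11.50 (knockout), 8.04 (transgenic) and 7.48 (wild type) and makes up much of that sum. The others past 2-fold were Cybb, a subunit of the phagocyte oxidase (1.55), and Lyz2, a lysozyme (1.12). Of the 5 defining myeloid markers, Csf1r and Adgre1 were under the median level on every array, and C1qa, C1qb and Lyz2 were above it on every array. All 5 defining dendritic cell markers and all 6 of thymic epithelium were under it on every array. Of the 15 dendritic genes 0 were called, and the median was 0.01. The summed levels of the dendritic list were 2591 in knockout thymocytes, 2521 in transgenic thymocytes and 2910 in wild type thymocytes. Those of the thymic epithelial list were 1715 (knockout), 1947 (transgenic) and 2066 (wild type). The 1 of 14 thymic epithelial genes called was Cldn4, lower by 1.44 on the knockout array, against 2.62% lower over all genes. A single gene weighs on the order of each sum. Ccr7, of the dendritic list, was at 9.08 (knockout), 9.32 (transgenic) and 10.08 (wild type). Cldn4 was at 7.94 (knockout), 8.94 (transgenic) and 9.38 (wild type). The orders of these sums are therefore not read as orders of the cells. The part of these cells in the class II levels was not tested.

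**Figure D4:**
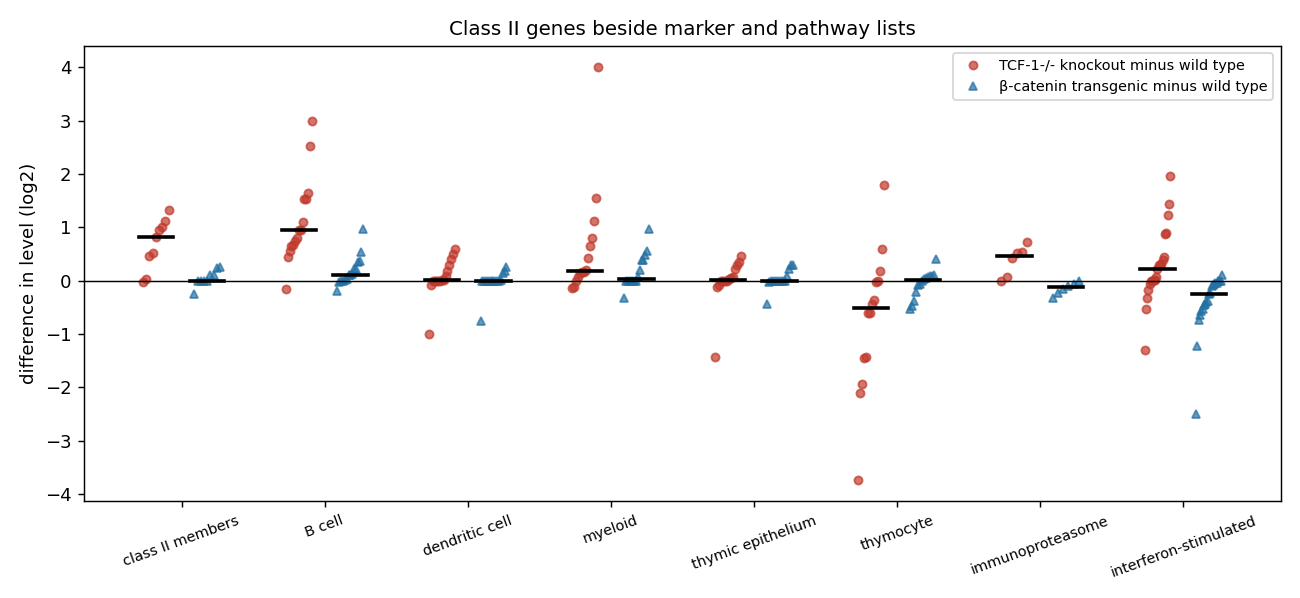
Difference from wild type (log2, vertical axis) of the 9 class II probe sets and of the measured genes of 7 marker and pathway lists (horizontal axis), with the knockout array to the left and the transgenic array to the right within each list. Points are genes or probe sets and black bars are medians. The class II and B cell medians, 0.81 and 0.95, lie highest on the knockout array.

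Other genes of the pathway were taken from fixed lists. Of the 6 genes of the immunoproteasome, the thymoproteasome and their activators, which cut peptides for class I, 0 were called, and the median was 0.47 on the knockout array and -0.13 on the transgenic array. Psme2, a subunit of the PA28 activator, was at 10.69 in knockout thymocytes, 9.81 in transgenic thymocytes and 9.97 in wild type thymocytes. Psmb9, an immunoproteasome subunit whose gene lies beside Tap1, was at 9.58 (knockout), 8.71 (transgenic) and 9.04 (wild type). Tap1 itself was lower on the knockout array than on the wild type array, by 0.31. The 9 further class I loading and chaperone genes had 0 calls, and Hspa5, the chaperone BiP, had the largest difference on the knockout array (0.61).

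Of the 10 class II processing genes, Ctsl was the 1 called, in opposite directions. This protease, cathepsin L, degrades the invariant chain in thymic epithelium. It was at 8.17 in knockout thymocytes, 11.66 in transgenic thymocytes and 9.95 in wild type thymocytes. Over all genes, 2.62% were lower on the knockout array and 0.15% higher on the transgenic array. The other 9 of the list were under 2-fold, with Lgmn, a lysosomal protease, at 0.67 and Ifi30, a thiol reductase, at 0.46 on the knockout array. Of the 13 measured regulators of MHC genes, 0 were called. Rfxank and Rfx5, subunits of the RFX complex that binds class I and class II promoters, were lower on the knockout array by 0.61 and 0.52. Irf1, an interferon-induced activator of class I genes, was at 9.26 in knockout thymocytes, 8.67 in transgenic thymocytes and 9.08 in wild type thymocytes. Of 6 co-stimulatory ligands and receptors 0 were called, and Cd274, which encodes PD-L1, had the largest difference (-0.90 on the knockout array).

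Of the 6 measured receptors of class I molecules, 2 were lower on the knockout array, the co-receptor genes Cd8b1 (-2.10) and Cd8a (-1.45). Over all genes, 2.62% were lower. Both are also counted in the thymocyte list above and add no separate result. Of the 6 receptors, 4 stayed under the median level on all arrays, and 0 were called on the transgenic array.

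Interferon-stimulated genes are known to share regulators with class I genes. Of the 21 measured, 3 were higher and 1 lower on the knockout array, with a median of 0.23, against 1.33% higher and 2.62% lower over all genes. On the transgenic array 2 were lower and 0 higher, and the median was -0.24, against 0.0953% lower and 0.15% higher over all genes. The higher genes on the knockout array were Usp18, an ISG15 protease (1.96), Oasl2 (1.43) and Rtp4 (1.23). Rtp4 and Epsti1 were the lower genes on the transgenic array (-1.22 and -2.50), and Epsti1 was also lower on the knockout array (-1.30). The classical class I probe sets and B2m had the same order over the arrays as these medians, highest on the knockout and lowest on the transgenic array. Their differences from wild type were all under 1.5-fold. Tap1, Tap2 and the Nlrc5 medians did not have that order, and a shared cause was not tested. With 1 array per genotype none of these orders has a replicate check.

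Between the mutants themselves, the 4 probe sets higher on the transgenic than on the knockout array were Mr1 (2.22), H2-Q2 (2.10), Cd1d1 (1.92) and H2-Q1 with H2-Bl (1.36). The 2 lower ones were H2-T3 with H2-T18 (-2.04) and H2-Eb2 (-1.22). These differences use the same arrays as the comparisons with wild type and add no independent measurement. They leave out the wild type array by construction, and the 6 probe sets were picked by these same differences. They are therefore no check on the differences from wild type. The mutant arrays also differ from each other in age and in Xist level. At 1.5-fold, 5 were higher and 12 lower, with 6.2% and 4.59% over all annotated probe sets, and 6 of the 9 class II probe sets were among the lower ones.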

How the data were processed

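Levels were measured on 1 Affymetrix whole-transcript array per genotype. The deposited values were taken as log2: RMA and Partek made them per the submitters' processing notes, with values between 1.73 and 14.8. The log base is in no header; for versions, settings and build: not given in the sources used here. Of 35556 probe sets, 23410 are annotated, 21789 of them with 1 symbol and 1621 with several. Columns of samples outside this series numbered 0. The deposited normalisation was kept. Members kept all their probe sets; pathway and marker lists used, for each of 19938 genes, the 1-symbol probe set with the highest mean. The 2-fold rule is one of size, since no test is possible, and the number of arrays limits precision. Named were the members past 2-fold, the main genes of each class, and the list genes past 2-fold or, in lists with none, among the largest differences; Irf1, Lgmn, Ifi30 and the Q, T and M region members, H2-Ea, H2-Ke6 and H2-K2 under 2-fold were added after their values were seen. The members and lists were chosen with earlier results of these data known. No protein sequences were used, so identity between members was not computed. Alternatives were other thresholds, centring over all or over annotated probe sets, loess (span 0.3), 1-symbol probe sets, 1 probe set per gene, a filter on dim probe sets, leaving out identical values, and the mean. The calculation was checked on simulated arrays. Python 3.11.15, NumPy 2.4.6, pandas 2.3.3, statsmodels 0.14.6 and matplotlib 3.10.9 were used.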

Additional observations from a re-analysis of the deposited data

How the results depend on the processing

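Of 30 recomputed counts of called members, 23 stayed within 1.5 times, and of 110 recomputed class medians, 90 moved by less than 0.1. Some of these settings could not change the result. Leaving out differences of exactly 0 cannot change a count at 2-fold. The 1-symbol setting cannot change classes whose probe sets all carry 1 symbol, such as Nlrc5. These totals are therefore not a measure of how robust the results are. Among counts, the knockout against wild type total of 8 became 5 (2 higher and 3 lower, in place of 5 higher and 3 lower) with 1-symbol probe sets, 14 at 1.5-fold and 3 at 3-fold. The transgenic against wild type total of 2 became 1, 8 and 0 under the same settings, and the transgenic against knockout total of 6 became 17 at 1.5-fold. For knockout minus wild type, centring over all probe sets moved the medians to 0.35 for classical class I, 0.14 for non-classical class I, 0.95 for class II, 0.26 for class I assembly, -1.63 for class I-like genes, 0.72 for Cd74 and Ciita, and -0.012 for Nlrc5. The mean gave 0.22 for non-classical class I, 0.69 for class II and -1.46 for class I-like genes. With 1-symbol probe sets class II was at 0.67, with 1 probe set per gene Nlrc5 was at -0.040, and without identical values non-classical class I was at 0.23. For transgenic minus wild type, 1 probe set per gene gave -0.20 for classical class I. Non-classical class I became 0.32 without dim probe sets, 0.33 without identical values and 0.23 as a mean. Without identical values class II became 0.11 and Cd74 and Ciita 0.26, and the mean for Nlrc5 was -0.29. Leaving out H2-Ke6 and the Rps3a1 with Tapbp probe sets, added after seeing the data, could change no count, since none of them was called. Centring over annotated probe sets, also added then, gave 7 in place of 8 and ended the H2-DMb2 with H2-DMb1 call (0.97). Of the called members, the lower H2-Q2 call ended under centring over all probe sets (-0.88) and loess (-0.99), and no direction reversed. No paired analysis was possible because each genotype has 1 array. The causes were not tested, except that centring shifts every value by construction. With no replicate arrays, differences in dim probe sets have no precision that can be given.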
